A study of Homo sapiens with 6 samples.

Results

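The MYC and MAX network is the set of basic helix-loop-helix leucine zipper transcription factors that share the partner MAX or its relative MLX. The members described here are the rows of the gene count table with the symbols MYC, MAX, MXD1, MXD3, MXD4, MXI1, MNT, MGA and MLX. Rows were taken by symbol, and earlier results of these data were known when the set was chosen. All 9 were found among the 36601 genes of the table, and all 9 were among the 12263 genes that passed the filter on low counts (more than 1 CPM, a count scaled to its library total, in at least 2 libraries).

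The counts came from RNA-seq of NK92, an IL-2-dependent cell line derived from a human NK lymphoma. Cells of both groups stably carried an shRNA, either a control (shCtrl) or one against miR155HG (shmiR155HG), and both groups were given IL-2 at 1000 U/mL together with IL-12 at 10 ng/mL, 12 h before RNA was taken, so no untreated library enters the comparison. Each group had 3 libraries, with a total of 33454786 to 39157264 counts each. The labels do not say whether libraries of a group came from separate transductions or cultures, so the p-values measure only the spread between these libraries.

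MYC binds DNA as a heterodimer with MAX at the E-box CACGTG and raises transcription of genes for ribosome production, nucleotide synthesis and cell division. MXD1, MXD3, MXD4, MXI1 and MNT compete with MYC for MAX and bring the SIN3 corepressor with its histone deacetylases to the same sites. MGA joins MAX in the Polycomb complex PRC1.6, which keeps germline genes silent, and MLX pairs with the glucose-responsive factors MLXIP and MLXIPL. In lymphocytes, cytokines such as IL-2 induce MYC, and the MYC protein drives growth before division.

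The letters CACGTG were searched in RefSeq promoter windows of GRCh38.p14, each reaching from 250 bases before to 50 bases after a gene start. The motif is its own reverse complement, so both strands are covered by one search. Of the 8 members with a window in the table used (all but MYC), 3 held the motif, beside 8.77% of all 27305 genes with a window and 12.9% of the tested genes with a window. The sites are shown because they are the sequence at which a network dimer could bind a network gene. Each is written 5′ to 3′ on the strand of its gene, with the E-box in capitals and 12 bases on both sides. The MXD4 site covers chr4:2262330-2262359 on the minus strand, with the first base of the E-box at position −238 from the gene start. The MNT site covers chr17:2401236-2401265 on the minus strand, with the E-box at −193, and the MLX site covers chr17:42567038-42567067 on the plus strand, with the E-box at −50.
MXD4: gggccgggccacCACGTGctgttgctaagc
MNT: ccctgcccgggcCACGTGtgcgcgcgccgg
MLX: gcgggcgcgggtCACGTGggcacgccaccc
The windows of MAX, MXD1, MXD3, MXI1 and MGA did not hold these letters. Of the 3 genes with a site, MXD4 was called higher in shmiR155HG cells, and MNT and MLX did not pass the test.

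The targeted transcript was examined first. MIR155HG, the host transcript of miR-155, was counted 73, 67 and 62 times in the shCtrl libraries, and 28, 19 and 10 times in the shmiR155HG libraries. These counts are 1.88, 1.84 and 1.59 CPM in shCtrl and 0.730, 0.499 and 0.299 CPM in shmiR155HG libraries. MIR155HG thus passed the filter only through the shCtrl group, near the floor, and its test is given with that limit. The groups did not overlap, and the fitted shmiR155HG level was 29.2% of that in shCtrl (log2 fold change −1.78, SE 0.43, adjusted p = 0.0045). Unless another test is named, adjusted p-values come from edgeR's quasi-likelihood test with Benjamini-Hochberg adjustment over all 12263 genes. The mature miRNA made from this transcript, miR-155-5p, lies at chr21:25573983-25574006 on the plus strand (RefSeq, GRCh38.p14). It is shown for its seed (bases 2 to 8, in capitals), the part that pairs with target mRNAs, and it was not measured by these counts.
miR-155-5p: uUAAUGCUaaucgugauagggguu
Its site, AGCATTA, occurred in the 3′UTR of the canonical transcript of 0 of 9 members (UTR lengths 378 nt in MXD3 to 4661 nt in MXD1), beside 11.9% of 10763 tested genes with a 3′UTR.

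NK cell markers were present in both groups. Of 13 NK markers, 12 were above 1 CPM in every library (CD7 was not), and the 13 summed to 4880 to 4950 CPM in shCtrl and 4410 to 4580 CPM in shmiR155HG libraries. This sum covered moves in both directions. GZMB (1160 to 1250 and 512 to 571 CPM), PRF1, GZMA, NCR1 and NCR3 were lower in shmiR155HG libraries. IL2RB (955 to 1030 and 1250 to 1290 CPM), TBX21 and EOMES were higher there. Whether these moves have a part in the values of the network was not tested. Of 6 T cell markers, CD3E and TRAC were above 1 CPM (summed 396 to 408 against 400 to 417 CPM, CD8B at 0). B cell markers (0 of 3 above 1 CPM in every library) summed to 0.355 to 1.13 CPM in shCtrl and 0.546 to 0.605 CPM in shmiR155HG. Myeloid markers (1 of 3, CSF1R) summed to 3.55 to 5.57 and 2.94 to 5.18 CPM. Erythroid markers (0 of 4, with HBG1, HBG2 and HBE1 at 0) summed to 0 and to at most 0.0598 CPM.

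Within the network, MYC and the repressor MXD4 were both higher in shmiR155HG NK92 cells, by 1.26 and 1.74 fold. MAX, MXD3, MXI1, MNT, MGA and MLX did not pass the test, and their group ranges overlapped. MXD1 lay below the shCtrl range in all 3 shmiR155HG libraries without passing the test. Thus 2 of 9 members were called higher, where 7.26% of all genes tested were called higher, and 0 of 9 lower, where 8.02% were. DESeq2 called 1 of 9 lower, MXD1, beside 1038 of the 12263 genes tested. The unadjusted p of MXD1 in edgeR's quasi-likelihood test was 0.0105, and the share of all genes at such a p was not counted. The rule of the study (edgeR's exact test, unadjusted P under 0.01, fold change over 1.2) called 2 of 9 members, beside 8.29% of the genes tested. The groups did not overlap in 3 of 9 members, a state found in 30.8% of the genes tested. The median log2 fold change of the 9 members was 0.050, beside 0.001 over all genes tested. In bulk RNA, a change in the share of cells that express a gene and a change in RNA per cell cannot be told apart.

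**Figure D1:**
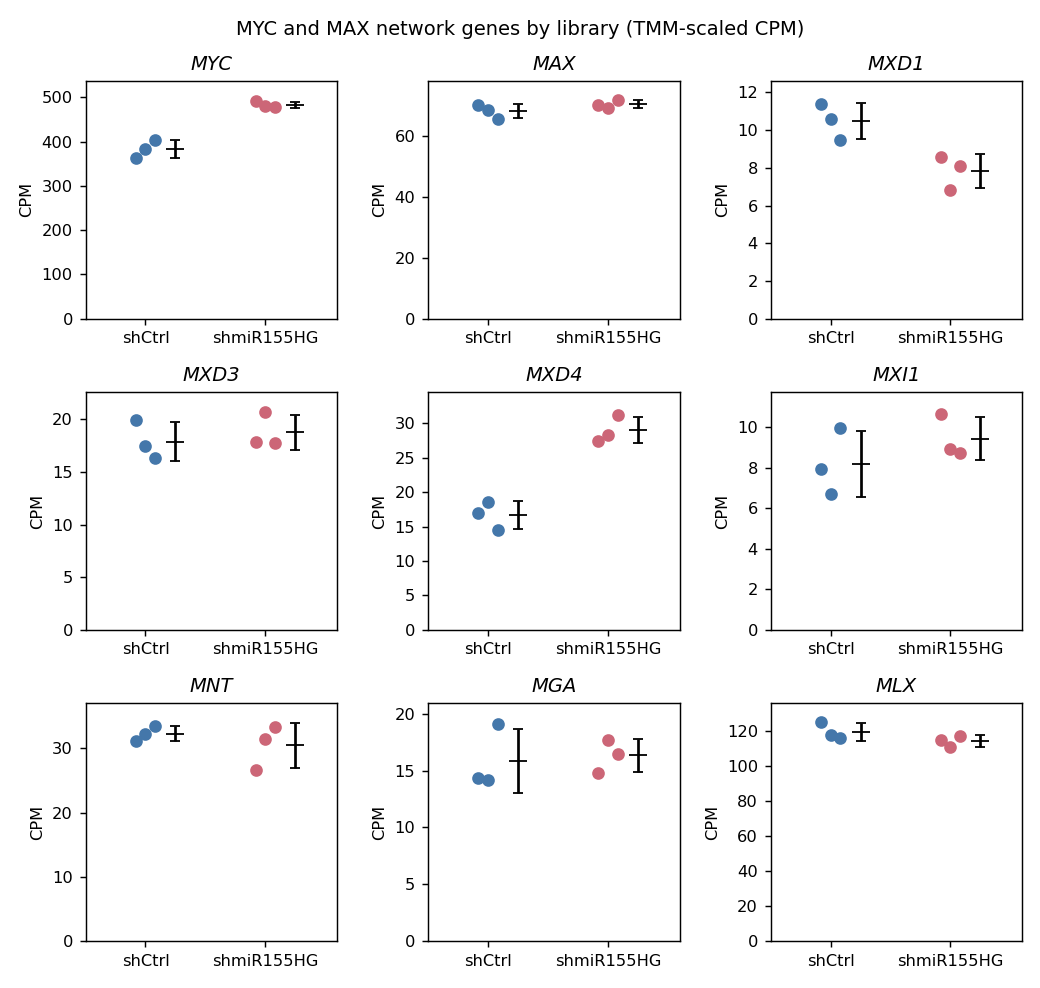
Normalised CPM of the 9 network genes in each library, one panel per gene with its own axis from 0, with 3 shCtrl libraries (blue) and 3 shmiR155HG libraries (red) as points, and the mean with its SD beside them. MYC and MXD4 have all 3 shmiR155HG points above the shCtrl points, MXD1 has all 3 below, and the other 6 genes overlap.

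MYC, the activating partner, lies on chromosome 8 from 127735434 to 127742951 (hg38, plus strand, 3 exons and 3721 nt in the canonical transcript). Its level was 363, 384 and 404 CPM in shCtrl replicates 1, 2 and 3, and 491, 481 and 479 CPM in the shmiR155HG replicates. The lowest shmiR155HG library stood above the highest shCtrl library. The means were 384 ± 20.9 and 484 ± 6.44 CPM (SD, n = 3 each), a log2 fold change of 0.33 (SE 0.037, 95% interval 0.26 to 0.41, adjusted p = 1.59e-07). With 13998 to 18837 counts per library, MYC was the most abundant member by counts. The SD was 5.44% of the mean in shCtrl and 1.33% in shmiR155HG libraries, and the median gene had 6.38% and 6.14%.

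MAX, the shared partner needed by MYC, the MXD proteins, MNT and MGA to bind DNA, lies on chromosome 14 from 65006174 to 65102695 (minus strand, 5 exons). It was at 70.3, 68.6 and 65.7 CPM in shCtrl and 70.4, 69.5 and 72.1 CPM in shmiR155HG libraries. The ranges overlapped, and the log2 fold change was 0.050 with a 95% interval of −0.071 to 0.17 (adjusted p = 0.645). FNTB overlaps MAX on the opposite strand, and without a stated strand in the counting, reads from both cannot be told apart. FNTB did not pass the test (log2 fold change 0.28, adjusted p = 0.188).

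MXD4, a MAX partner that represses MYC target sites and is expressed in differentiating cells, lies on chromosome 4 from 2247432 to 2262109 (minus strand, 6 exons). Its level was 17.0, 18.5 and 14.6 CPM in shCtrl and 27.5, 28.4 and 31.2 CPM in shmiR155HG replicates 1, 2 and 3. The lowest shmiR155HG library was well above the highest shCtrl library. The means were 16.7 ± 1.98 and 29.0 ± 1.90 CPM (SD, n = 3 each), a log2 fold change of 0.80 (SE 0.10, 95% interval 0.58 to 1.01, adjusted p = 2.55e-06), the largest rise among the members. No tested gene overlaps MXD4. Its canonical transcript has 63.5% GC, against a median of 48.3% over the tested genes, and log2 fold changes correlated weakly with GC content across genes (Spearman's rho 0.274, genes not being independent). With GC content corrected, MXD4 stayed at 0.72 (adjusted p = 1.28e-05) and MYC, at 48.8% GC, at 0.33 (adjusted p = 8.24e-08).

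MXD1, the first identified repressor of the family and a gene induced in differentiating blood cells, lies on chromosome 2 from 69897688 to 69942945 (plus strand, 6 exons). Its level was 11.4, 10.6 and 9.49 CPM in shCtrl and 8.57, 6.81 and 8.07 CPM in shmiR155HG libraries. The shmiR155HG values were all below the shCtrl values. The means were 10.5 ± 0.95 and 7.82 ± 0.91 CPM (SD, n = 3 each), a log2 fold change of −0.42 (SE 0.15, 95% interval −0.74 to −0.11, adjusted p = 0.0631), which missed the threshold of 0.05. DESeq2 gave nearly the same value (−0.42) with an adjusted p of 0.0486, and the values with 1 library left out were −0.50 to −0.33. With GC content corrected, MXD1, at 42.5% GC, stood at −0.38 and was not called (adjusted p = 0.0983). SNRNP27 overlaps MXD1 on the same strand and did not pass the test (log2 fold change −0.11, adjusted p = 0.384).

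MXD3, a repressor of the family found in dividing cells, lies on chromosome 5 from 177301461 to 177312757 (minus strand, 6 exons). It was at 19.9, 17.4 and 16.3 CPM in shCtrl and 17.9, 20.7 and 17.8 CPM in shmiR155HG libraries. The groups overlapped, with a log2 fold change of 0.071 (95% interval −0.16 to 0.30, adjusted p = 0.747), which was −0.004 without shmiR155HG replicate 2 and −0.020 with GC content corrected. Its neighbours RAB24, on the same strand (log2 fold change 0.29, adjusted p = 0.0523), and PRELID1, on the opposite strand (log2 fold change 0.039, adjusted p = 0.522), overlap it.

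MXI1, a repressor first found as a MAX interactor, lies on chromosome 10 from 110207605 to 110287365 (plus strand, 6 exons). It was at 7.92, 6.72 and 9.96 CPM in shCtrl and 10.7, 8.93 and 8.73 CPM in shmiR155HG libraries. The SD among shCtrl libraries was the widest in the network relative to the mean (8.20 ± 1.64 CPM). The groups overlapped, with a log2 fold change of 0.20 and a wide 95% interval of −0.14 to 0.54 (adjusted p = 0.468).

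MNT, the repressor that is expressed in growing as well as resting cells, lies on chromosome 17 from 2384073 to 2401104 (minus strand, 6 exons). It was at 31.2, 32.3 and 33.5 CPM in shCtrl and 26.6, 31.5 and 33.3 CPM in shmiR155HG libraries. The lowest value belonged to shmiR155HG replicate 1, and the other values of both groups overlapped (log2 fold change −0.085, 95% interval −0.27 to 0.10, adjusted p = 0.592, and 0.0034 without that library). MGA, the large scaffold protein of PRC1.6, lies on chromosome 15 from 41621134 to 41773081 (plus strand, 24 exons). It was at 14.3, 14.2 and 19.1 CPM in shCtrl and 14.8, 17.7 and 16.5 CPM in shmiR155HG libraries. The highest and the lowest MGA value were both in shCtrl libraries (log2 fold change 0.044, 95% interval −0.22 to 0.31, adjusted p = 0.870). Without shCtrl replicate 1, shCtrl replicate 2 or shmiR155HG replicate 2 its log2 fold change was −0.024, −0.031 or −0.019.

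MLX, the partner of the glucose-responsive factors and of some MXD proteins, lies on chromosome 17 from 42567072 to 42573239 (plus strand, 8 exons). It was at 125.3, 117.7 and 116.0 CPM in shCtrl and 114.8, 110.8 and 117.5 CPM in shmiR155HG libraries. The groups overlapped, with a log2 fold change of −0.065 (95% interval −0.16 to 0.033, adjusted p = 0.412). The interval was among the narrowest in the network, together with those of MYC and MAX. PSMC3IP overlaps MLX on the opposite strand and did not pass the test (log2 fold change −0.17, adjusted p = 0.111).

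**Figure D2:**
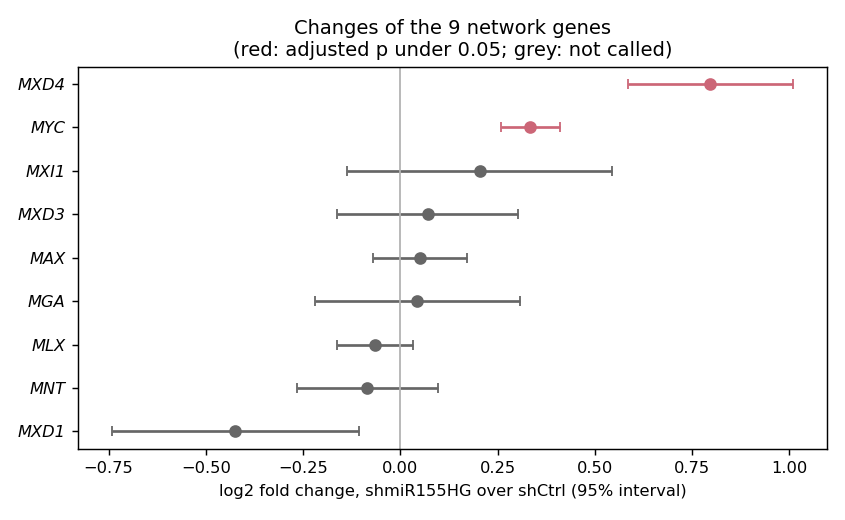
Log2 fold change of the 9 network genes in shmiR155HG over shCtrl libraries (points) with the 95% interval of the quasi-likelihood fit (bars), red for an adjusted p under 0.05 and grey for the rest. MXD4 (0.80) and MYC (0.33) lie to the right of 0, the MXD1 interval (−0.74 to −0.11) lies to the left of 0 without an adjusted p under 0.05, and the other 6 intervals include 0.

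Levels of different genes were compared as CPM per kb of the canonical transcript. In shCtrl libraries MYC led with 103 ± 5.60 CPM per kb, followed by MLX with 50.7 ± 2.10, MAX with 33.9 ± 1.17 and MXD3 with 16.8 ± 1.73 (SD, n = 3). Then came MNT with 6.56 ± 0.235, MXD4 with 4.31 ± 0.513, MXI1 with 2.36 ± 0.472, MXD1 with 1.89 ± 0.171 and MGA with 1.30 ± 0.230. Only MXI1 and MXD1, among neighbours in this order, had overlapping ranges over the shCtrl libraries. In shmiR155HG libraries MXD4, at 7.50 ± 0.492 CPM per kb (range 7.11 to 8.05), stood above MNT at 6.19 ± 0.701 (5.41 to 6.76), and MYC stood at 130 ± 1.74. At the low end MXD1 (1.41 ± 0.164) and MGA (1.34 ± 0.121) overlapped in shmiR155HG libraries. Which transcripts the cells of each group use was not tested, and other transcripts would change these levels.

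**Figure D3:**
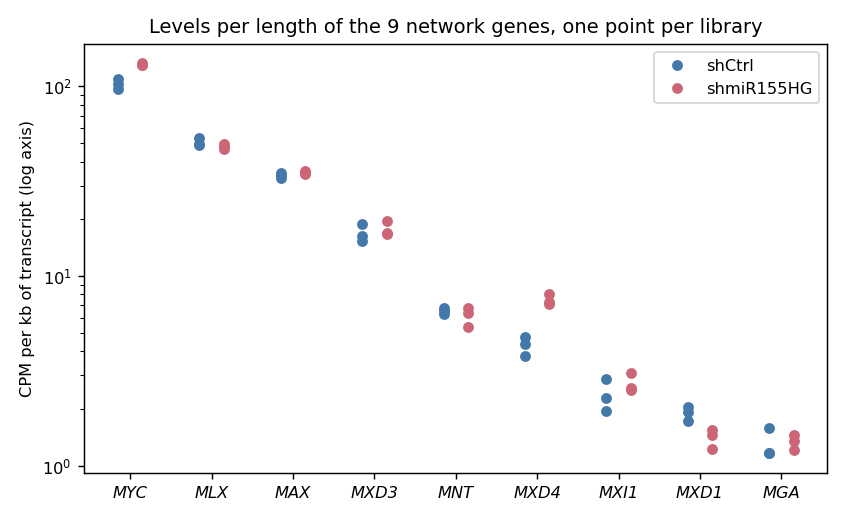
CPM per kb of canonical transcript (log axis) of the 9 network genes, one point per library, shCtrl in blue and shmiR155HG in red, ordered by level in shCtrl. The points reach from 109 CPM per kb for MYC to 1.16 for MGA in shCtrl libraries, and MXD4 passes MNT in shmiR155HG libraries.

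The balance between MYC and 4 of its MAX-dependent repressors was described by ratios of these per-kb levels, without a test since they restate the members' values. MNT, at 6.56 ± 0.235 CPM per kb in shCtrl and 6.19 ± 0.701 in shmiR155HG libraries, is not among these 4. The 4 MXD-type repressors (MXD1, MXD3, MXD4 and MXI1) summed to 27.4, 25.0 and 23.6 CPM per kb in shCtrl and 28.5, 30.5 and 28.7 CPM per kb in shmiR155HG libraries. MYC stood over this sum by 3.56, 4.13 and 4.60 times in shCtrl and 4.63, 4.23 and 4.49 times in shmiR155HG libraries. The groups overlapped in this ratio (4.10 ± 0.522 and 4.45 ± 0.202, SD, n = 3), while the sum itself lay higher in all 3 shmiR155HG libraries (25.3 ± 1.91 and 29.2 ± 1.12 CPM per kb).

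The makeup of these 4 repressors also differed. MXD4 was 16.1%, 19.2% and 16.0% of the 4 repressors in shCtrl and 25.0%, 24.0% and 28.1% in shmiR155HG libraries. MXD4 stood over MXD1 by 2.14, 2.51 and 2.20 times in shCtrl and 4.60, 5.98 and 5.53 times in shmiR155HG libraries. These groups lay apart. MYC over MAX was 2.78, 3.02 and 3.32 in shCtrl and 3.77, 3.74 and 3.59 in shmiR155HG libraries, also without overlap, and MYC over MXD4 was 24.2 ± 4.04 and 17.4 ± 1.30.

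**Figure D4:**
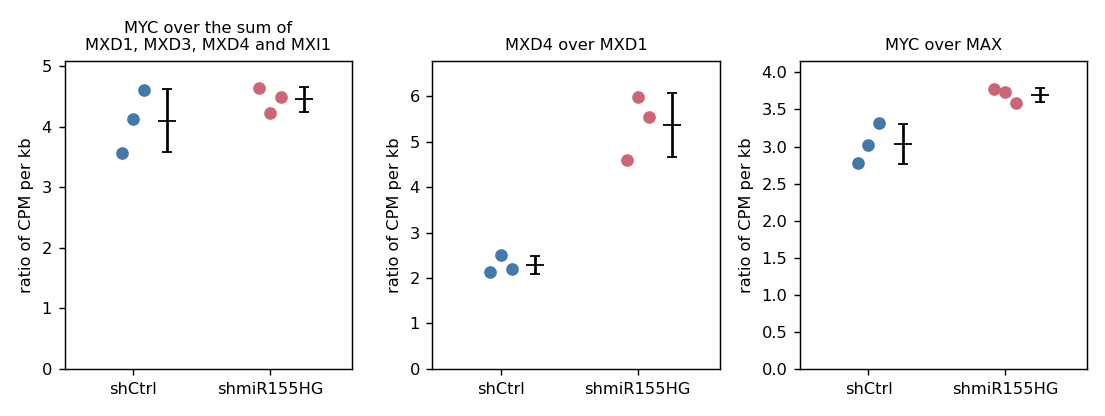
Ratios of CPM per kb of canonical transcript in each library (points; shCtrl blue, shmiR155HG red) with the mean and SD, for MYC over the sum of MXD1, MXD3, MXD4 and MXI1, MXD4 over MXD1, and MYC over MAX. The first ratio overlaps between groups (4.10 and 4.45 on average), while MXD4 over MXD1 (2.28 and 5.37) and MYC over MAX (3.04 and 3.70) do not.

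Genes whose products work with the network were grouped in lists. Over 10 lists with 144 tested genes, 16 were called higher (11.1%) and 21 lower (14.6%), beside 7.26% and 8.02% of all genes tested. Their median log2 fold change was −0.011. Without shmiR155HG replicate 2, 9 were called higher and 15 lower, beside 580 and 674 of all genes. With GC content corrected, the counts were 14 and 23, beside 839 and 893 of the 12263 genes tested. Of the other bHLH-zipper factors, 3 of 6 passed the filter. MLXIP, the MLX partner also called MondoA, rose from 65.1 ± 4.25 to 74.6 ± 0.717 CPM (log2 fold change 0.19, adjusted p = 0.0292). USF1 (0.042, adjusted p = 0.771) and USF2 (0.0085, adjusted p = 0.943), which bind the same E-box without MAX, did not pass the test, and MYCN, MYCL and MLXIPL did not pass the filter. The MLXIP call was lost when any single library other than shCtrl replicate 1 was left out (adjusted p 0.0694 to 0.120) and with GC content corrected (0.15, adjusted p = 0.107).

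Of 16 SIN3 corepressor genes, 0 were called higher and 2 lower (median log2 fold change −0.039). These were HDAC2, a histone deacetylase (240 ± 11.7 to 214 ± 3.89 CPM, log2 fold change −0.16, adjusted p = 0.00532), and BRMS1L, a SIN3 subunit (16.1 ± 1.64 to 11.5 ± 1.17 CPM, −0.48, adjusted p = 0.0105). Of 11 PRC1.6 genes, 1 was lower, TFDP1 (−0.095, adjusted p = 0.0437), the dimerisation partner of E2F proteins. Of 11 listed germline genes known to be repressed by PRC1.6, 3 passed the filter, so these 3 were not silent in these cells. Whether PRC1.6 acts on them here was not tested. STAG3, a meiotic cohesin subunit, fell from 53.5 ± 3.05 to 33.1 ± 1.98 CPM (log2 fold change −0.69, adjusted p = 9.47e-08), while MEI1 (−0.29, adjusted p = 0.391) and TDRKH (−0.052, adjusted p = 0.807) did not pass the test. HDAC2 was not called without shCtrl replicate 2 (−0.13, adjusted p = 0.0665), nor BRMS1L without shCtrl replicate 2 or shmiR155HG replicate 1 or 2 (adjusted p 0.0529 to 0.0747), nor TFDP1 without any library other than shmiR155HG replicate 3 (0.0531 to 0.167). With GC content corrected, HDAC2 (adjusted p = 0.0620) and TFDP1 (adjusted p = 0.0708) were not called, and 1 PRC1.6 gene was called higher, RYBP (0.17, adjusted p = 0.00956).

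Of 25 MYC cofactors and turnover factors, 3 were higher and 2 lower. BPTF, a chromatin remodelling subunit that MYC recruits, rose from 107 ± 7.57 to 126 ± 3.52 CPM (log2 fold change 0.24, adjusted p = 0.00166). USP36, a deubiquitinase that keeps MYC protein from degradation, rose by 0.13 (adjusted p = 0.0258). SKP2, a ubiquitin ligase subunit that marks MYC for degradation, fell from 89.7 ± 6.03 to 73.5 ± 4.31 CPM (−0.29, adjusted p = 0.00136). CIP2A, which shields MYC from a phosphatase that destabilises it, fell from 157 ± 6.81 to 136 ± 4.62 CPM (−0.20, adjusted p = 0.00273). BPTF, SKP2 and CIP2A were called with each library left out. USP36 was not called without shCtrl replicate 1 or 2 or shmiR155HG replicate 2 or 3 (adjusted p 0.0759 to 0.139), nor with GC content corrected (adjusted p = 0.0853). With GC content corrected, 2 of the 25 were higher and 2 lower. GSK3B (0.18, adjusted p = 0.0436), named after its value was seen, was then called higher.

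The genes that MYC is known to activate did not move in 1 direction. Over the 3 lists of such targets, 11 of 80 tested genes were higher (13.8%) and 15 lower (18.8%), with a median of −0.010. Without shmiR155HG replicate 2, 7 were higher and 11 lower, beside 580 and 674 of all genes. With GC content corrected, 9 were higher and 19 lower, beside 839 and 893 of the 12263 genes tested. In the list named for ribosome biogenesis, which also holds genes with another role such as HSPD1, 3 of 38 were higher and 4 lower. PPAN, a ribosome assembly factor, rose by 0.21 (adjusted p = 0.00401), UBTF, an activator of RNA polymerase I, by 0.17 (adjusted p = 0.00414) and RRS1, a ribosome assembly factor, by 0.15 (adjusted p = 0.0305). HSPD1, the mitochondrial chaperonin, fell from 1135 ± 23.2 to 1022 ± 6.99 CPM (−0.15, adjusted p = 0.000573), NPM1, a nucleolar histone chaperone, by 0.13 on the log2 scale (adjusted p = 0.00459) and DDX18, a nucleolar helicase, by 0.14 (adjusted p = 0.0112). The remaining gene called lower was PHB (−0.12, adjusted p = 0.0272), named after its value was seen. HSPD1 was called with each library left out. PPAN and UBTF were not called without shmiR155HG replicate 2 (adjusted p = 0.0677 and 0.0658), nor NPM1 without shCtrl replicate 1 (0.0538), nor DDX18 without shCtrl replicate 1 or 2 or shmiR155HG replicate 1 (0.0509 to 0.0713). RRS1 was not called without shCtrl replicate 1 or 2 or shmiR155HG replicate 1 or 3 (adjusted p 0.0957 to 0.163), nor PHB without shCtrl replicate 2 or shmiR155HG replicate 2 or 3 (0.0536 to 0.191). With GC content corrected, 2 of the 38 were higher and 6 lower: NPM1 (adjusted p = 0.0541), DDX18 (0.103) and RRS1 (0.0906) were not called, and TCOF1 (0.00947), BOP1 (0.0345), NHP2 (0.0372) and FBL (0.0498), named after their values were seen, were called lower.

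In metabolism and translation, 5 of 31 target genes were higher and 8 lower. The amino acid transporter subunits SLC3A2 and SLC7A5, which form 1 exchanger, rose from 198 ± 7.04 to 245 ± 5.38 CPM (log2 fold change 0.31, adjusted p = 1.38e-06) and from 163 ± 4.14 to 193 ± 4.25 CPM (0.25, adjusted p = 6.66e-05). SLC1A5, a glutamine transporter, rose from 305 ± 7.39 to 347 ± 4.81 CPM (0.18, adjusted p = 0.000398). SRM, spermidine synthase (0.17, adjusted p = 0.00107), and SLC2A1, a glucose transporter (0.14, adjusted p = 0.0469), were the other 2 and were named after their values were seen. On the lower side NAMPT, of NAD synthesis, fell from 182 ± 5.11 to 144 ± 2.61 CPM (−0.33, adjusted p = 1.04e-06). MTHFD2, a mitochondrial folate enzyme, fell from 288 ± 6.01 to 240 ± 1.96 CPM (−0.26, adjusted p = 5.54e-06), and PAICS, of purine synthesis, from 521 ± 9.62 to 461 ± 8.64 CPM (−0.18, adjusted p = 0.000331). Of the 8 genes named here, all but SLC2A1 were called with each library left out and with GC content corrected. SLC2A1 was not called without any library other than shCtrl replicate 3 (adjusted p 0.0547 to 0.238) or with GC content corrected (0.0965). The remaining genes called lower lie outside the naming rule and are not named, and some lost their call with a library left out. With GC content corrected, 4 of the 31 were higher and 9 lower. CAD (−0.12, adjusted p = 0.0142), named after its value was seen, was then called lower.

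In the cell cycle list, 3 of 11 tested genes were higher and 3 lower. CCND2, a G1 cyclin, rose from 458 ± 21.9 to 515 ± 11.1 CPM (0.17, adjusted p = 0.00121), CCNB1, the mitotic cyclin, by 0.14 (adjusted p = 0.0122) and CUL1, a ubiquitin ligase scaffold, by 0.11 (adjusted p = 0.0189). MCM4, a replicative helicase subunit, fell from 925 ± 41.8 to 799 ± 19.7 CPM (−0.21, adjusted p = 4.71e-05), as did the transcription factors E2F1 (−0.21, adjusted p = 0.000172) and E2F2 (−0.18, adjusted p = 0.00992). CUL1 was not called without shCtrl replicate 1 or shmiR155HG replicate 1 or 2 (adjusted p 0.0626 to 0.0834), nor E2F2 without shCtrl replicate 3 or shmiR155HG replicate 1 (0.0626 and 0.0671). With GC content corrected, 3 of the 11 were higher and 4 lower. CDK4 (−0.14, adjusted p = 0.0307), named after its value was seen, was then called lower. Of the genes known to be repressed by MYC, 1 of 5 tested was higher. This was GADD45A, a stress response gene, which rose from 14.3 ± 1.70 to 22.7 ± 1.53 CPM (0.67, adjusted p = 0.000123). CDKN1B (−0.21, adjusted p = 0.0862), FTH1 (0.092, adjusted p = 0.109), NDRG1 (0.52, adjusted p = 0.15) and CDKN1A (0.22, adjusted p = 0.832) did not pass the test. TXNIP, a target of MLX with MLXIP, was at 176 ± 2.24 and 191 ± 8.63 CPM (0.11, adjusted p = 0.0648) and was called with GC content corrected (0.15, adjusted p = 0.0125).

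**Figure D5:**
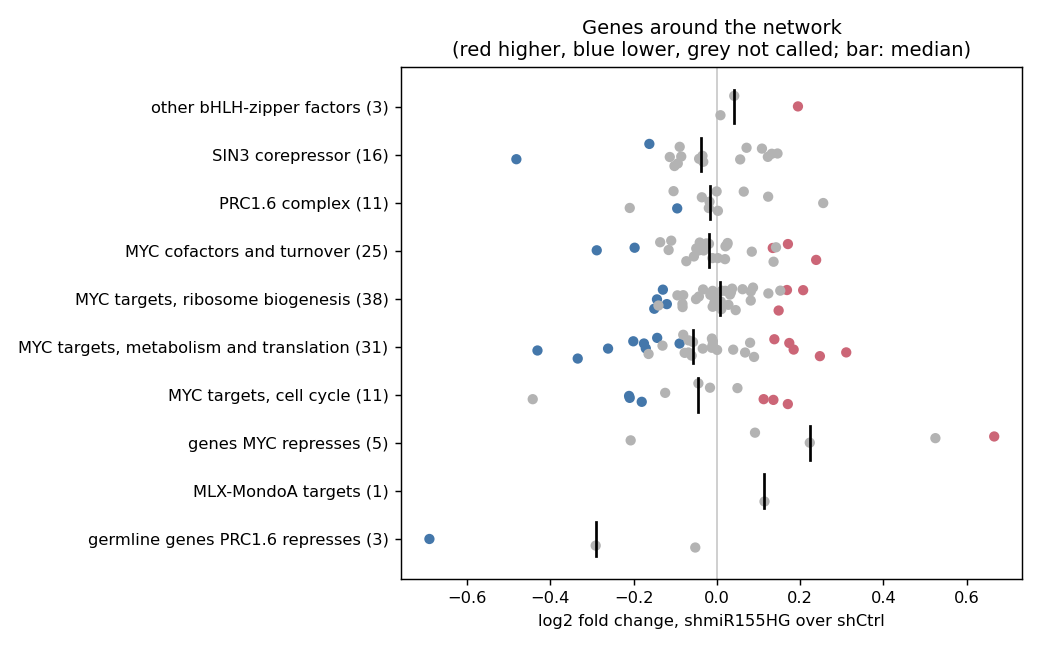
Log2 fold change of each tested gene in the 10 lists around the network (number tested in parentheses), with red for genes called higher, blue for lower, grey for the rest and a bar at the list's median. The medians of the 3 lists of MYC targets lie at 0.0074, −0.058 and −0.045, with calls on both sides of 0.

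Of 67 listed MYC targets with a promoter window, 30 held CACGTG (44.8%), beside 12.9% of the tested genes with a window. Among targets called higher, 4 of 9 with a window held it, and among those called lower, 2 of 11. The sites of these called targets are shown, with the E-box in capitals, so that higher and lower genes can be set side by side. SRM (chr1:11060200-11060229, minus strand), CCNB1 (chr5:69166942-69166971, plus strand), SLC7A5 (chr16:87869620-87869649, minus strand) and SLC1A5 (chr19:46787326-46787355, minus strand) were higher. HSPD1 (chr2:197500345-197500374, minus strand) and PAICS (chr4:56435780-56435801, plus strand, where the window ends after 4 further bases) were lower.
SRM: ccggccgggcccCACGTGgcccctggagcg
CCNB1: gcagaggcagacCACGTGagagcctggcca
SLC7A5: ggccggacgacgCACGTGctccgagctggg
SLC1A5: ggcgggagtggtCACGTGgacaggacgggg
HSPD1: cggccctggcgaCACGTGaaaaaatcaccc
PAICS: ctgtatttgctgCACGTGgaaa
The E-box thus occurred in promoters of targets that rose and of targets that fell.

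The genes whose level followed MYC most closely over the 6 libraries were PLD6 (Pearson's r 0.999), RYBP (0.998), UBXN6 (0.997), PAX5 (0.996) and IRF1 (0.995), out of 8782 genes whose mean reached 10 CPM. The libraries fall into the 2 groups, and 531 of these genes had r above 0.9, so the values describe likeness and carry no test. PLD6, a mitochondrial phospholipase family member (log2 fold change 0.42, adjusted p = 0.0443), PAX5, a B lineage transcription factor (0.49, adjusted p = 1.70e-09), and IRF1, an interferon regulatory factor (0.11, adjusted p = 0.0258), were called higher. RYBP, a subunit of PRC1 complexes (0.12, adjusted p = 0.0727), and UBXN6, an adaptor of the ATPase VCP (0.14, adjusted p = 0.171), were not, RYBP being called with GC content corrected. PLD6 and IRF1 were not called without any library other than shCtrl replicate 3 (adjusted p 0.0862 to 0.147 and 0.0533 to 0.104), while PAX5 was called with each library left out.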

How the data were processed

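RNA was sequenced as paired reads of 150 bases after oligo(dT) capture. The authors used HISAT2 on hg38, then StringTie and prepDE.py3, and deposited whole-number counts per gene that were not normalized. Tool versions, annotation release, strand use and the read length given to prepDE.py3 are not given in the sources used here. The treatment labels of shmiR155HG replicates 2 and 3 write other numbers in the name of the targeted gene, and their titles were followed.

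Differences were tested with edgeR 4.0.16 in R 4.3.3 (TMM scaling, robust quasi-likelihood test, genes over 1 CPM in at least 2 libraries, Benjamini-Hochberg adjusted p under 0.05). The SE belongs to a log2 fold change, and the SD to CPM within a group. Replicate numbers did not pair the samples (correlations of same-numbered deviations 0.012, −0.034 and −0.059), so no block was used. The mean chi-square per gene between replicates of a pair was 7.03 to 10.1. Sampling of independent counts alone would give 1. These counts may scale with the read length given to prepDE.py3, so the excess cannot be read as replicate spread alone. Exon structure, 3′UTRs and GC content came from GENCODE v44, whose release may differ from the authors'. The script was checked on simulated data.

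The members and lists were chosen with earlier results of these data known. Named were MIR155HG, all members, in each list the 3 genes called higher and the 3 called lower with the smallest adjusted p, every gene of a list of at most 6, and the 5 genes most like MYC. One gene that this rule names is not reported here. Further genes are marked as named after their values were seen. Alternatives were DESeq2 1.42.0, limma-voom (limma 3.58.1), the study's rule (exact test, unadjusted P under 0.01, fold change over 1.2), other scalings and filters, halved counts, a replicate block and each library left out. A GC content correction was added after the data were seen.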

Additional observations from a re-analysis of the deposited data

How the results depend on the processing

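Across the 15 alternatives listed under the processing, without the GC correction, MYC (log2 fold change 0.30 to 0.38) and MXD4 (0.71 to 0.88) kept their direction and their call in every one, and MIR155HG did as well (−2.13 to −1.52). MXD1 kept its direction (−0.50 to −0.33) and was called in 1 alternative, DESeq2 (−0.42, adjusted p = 0.0486). Its adjusted p reached up to 0.225 in the others. Members called lower thus rose from 0 to 1 with DESeq2, which called 1038 of all genes lower. By the study's rule, run here with tagwise dispersion since the authors' setting is not given, 551 genes were higher and 466 lower. Of the 144 related list genes 2 were then higher and 5 lower, and of the 80 MYC target genes 1 and 2. With a library left out, genes called higher numbered 580 to 891, related list genes called higher 9 to 16 and MYC target genes called higher 7 to 11, with lower counts of 674 to 917, 15 to 20 and 11 to 15. The lowest of each higher count came without shmiR155HG replicate 2. Among the members, 3 without a call changed sign with 1 library left out. The range was −0.004 to 0.16 for MXD3 (negative without shmiR155HG replicate 2), −0.15 to 0.0034 for MNT (positive without shmiR155HG replicate 1) and −0.031 to 0.20 for MGA (negative, at −0.024, −0.031 and −0.019, without shCtrl replicate 1, shCtrl replicate 2 and shmiR155HG replicate 2). With GC content corrected, MXD3 stood at −0.020, and the cause was not tested. With a replicate block, 829 genes were higher and 909 lower, MYC stood at 0.34 and MXD4 at 0.80, and no call of a member changed, while TFDP1, SLC2A1 and PLD6, of the genes named, were not called. No scaling shifted the median log2 fold change by over 0.1. Members under 10 CPM, MXI1 and MXD1 in shmiR155HG libraries, have the widest intervals.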

Other observations

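Levels per length depend on the transcript taken. With the union of all annotated exons in place of the canonical transcript, MYC stood at 62.8 ± 3.41 CPM per kb in shCtrl and 79.1 ± 1.06 in shmiR155HG libraries, still the highest, and MGA the lowest. MXD3 (3.77 ± 0.389) and MNT (3.71 ± 0.133) then overlapped in shCtrl libraries. MXD4 stood at 2.43 ± 0.289 in shCtrl and 4.22 ± 0.277 in shmiR155HG libraries, where its range (4.0 to 4.53) overlapped that of MXD3 (3.74 to 4.36). MXD1 (1.49 to 1.79) and MXI1 (1.14 to 1.69) overlapped in shCtrl libraries. MYC over the sum of the 4 MXD-type repressors was 6.83 ± 0.761 and 7.19 ± 0.141, and MXD4 made up 26.3% and 38.3% of that sum. The ratio of MXD4 to MXD1 was 1.47 ± 0.127 in shCtrl and 3.46 ± 0.452 in shmiR155HG libraries (SD, n = 3).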
